A study of Arabidopsis thaliana with 24 samples.

Results

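The 38 genes described here are nuclear genes of Arabidopsis thaliana for subunits of the photosystems, their antennae, electron carriers and the chloroplast ATP synthase. They were taken by identifier from the 32548 genes listed in each of the expression tables. They comprise 12 genes of photosystem I, 4 of its antenna (LHCA1 to LHCA4), 10 of photosystem II, 4 of the minor antennae of photosystem II (LHCB4.1, LHCB4.2, LHCB5 and LHCB6), and 8 of the electron carriers and the chloroplast ATP synthase. They were chosen by gene function, with earlier results of these data known. Seedlings were profiled by RNA sequencing to compare the wild type with mutants of the histone acetyltransferase gene HAG2, the histone-binding genes MSI2 and MSI3 and the histone chaperone gene NASP, which belong to the NuB4 complex. At 12 days, plants on Murashige and Skoog plates were wild type (Col-0), nasp-/-, hag2-/- nasp-/-, msi2-/- msi3-/- nasp-/- or hag2-/- msi2-/- msi3-/-. At 20 days, plants from a growth chamber were wild type (Col-0), msi2-/- msi3-/- or hag2-/- msi2-/- msi3-/-. Each genotype and age had 3 libraries, 24 in all. Libraries were single-end reads from a DNBSEQ platform at 12 days and paired-end reads from an Illumina instrument at 20 days. Every plant grew at 22 °C in 16 h of light and 8 h of dark. The alleles are not named beyond these symbols, and no label states the hour of harvest, the number of plants in a library or whether the replicates were grown apart, so the p-values rest on the spread between these libraries, which may be technical.

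Photosystem II uses light to draw electrons from water and passes them through plastoquinone to the cytochrome b6f complex. Plastocyanin carries them to photosystem I, which hands them to ferredoxin, and ferredoxin-NADP reductase makes NADPH while ATP synthase uses the proton gradient. The core of both photosystems is encoded in the chloroplast, whereas the subunits studied here are made from nuclear genes, translated in the cytosol and imported.

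The values deposited are normalized read values per gene, which summed to between 19581640 and 20976089 per library at 12 days and between 45731138 and 48211158 at 20 days; the number of reads behind them is unknown. At 12 days 4 pairs of libraries, and at 20 days 2 pairs, list exactly the same genes at 0. All are pairs of the same genotype; of the 90 and 27 pairs of different genotypes, 0 do. Whether genotype entered the normalization is not stated, and its effect on the p-values of any comparison was not tested. All 38 genes were far above the minimum value of 1 used as a filter, with a lowest value of 1036 at 12 days and 13421 at 20 days, and all were tested at both ages. Of the mutated genes, NASP fell from a mean of 512 in the wild type to 154 in nasp, 133 in hag2 nasp and 139 in the msi2 msi3 nasp line, so transcript remained. HAG2 fell in hag2 nasp to a mean of 26.4 from 410, and in hag2 msi2 msi3 to 73.2 at 12 days. MSI2 and MSI3 both fell in msi2 msi3 nasp at 12 days, and again in 20-day msi2 msi3. Where the label reads hag2 msi2 msi3, MSI3 and HAG2 fell at both ages, but MSI2 did not pass the test at 12 days (-0.11 ± 0.088, adjusted p = 0.578) or at 20 days (-0.28 ± 0.082, adjusted p = 0.0692). Results for that genotype are therefore those of libraries labelled hag2 msi2 msi3.

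In the 12-day wild type, values per kilobase of transcript ran from 2918 for PETE1, the less expressed of a pair of plastocyanin genes, to 107159 for PSBR, a small subunit of photosystem II. Per kilobase, PSBO1 (67108), LHCB5 (63673) and LHCA1 (62339) followed PSBR. In the 20-day wild type the order was headed by LHCA4 (282101 per kilobase) and LHCA1 (215320), and PETE1 (13769) was again lowest. The ages were sequenced on different instruments and their values were scaled apart, so no level was compared between them. Together the 38 genes took 7.62 to 7.73% of the summed values in the 12-day wild type libraries. Their share was 8.11 to 8.90% in nasp, 3.05 to 3.34% in hag2 nasp, 3.07 to 3.51% in msi2 msi3 nasp and 7.18 to 7.59% in hag2 msi2 msi3. At 20 days it was 9.06 to 9.50% in the wild type, 8.44 to 8.87% in msi2 msi3 and 8.75 to 9.10% in hag2 msi2 msi3.

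**Figure D1:**
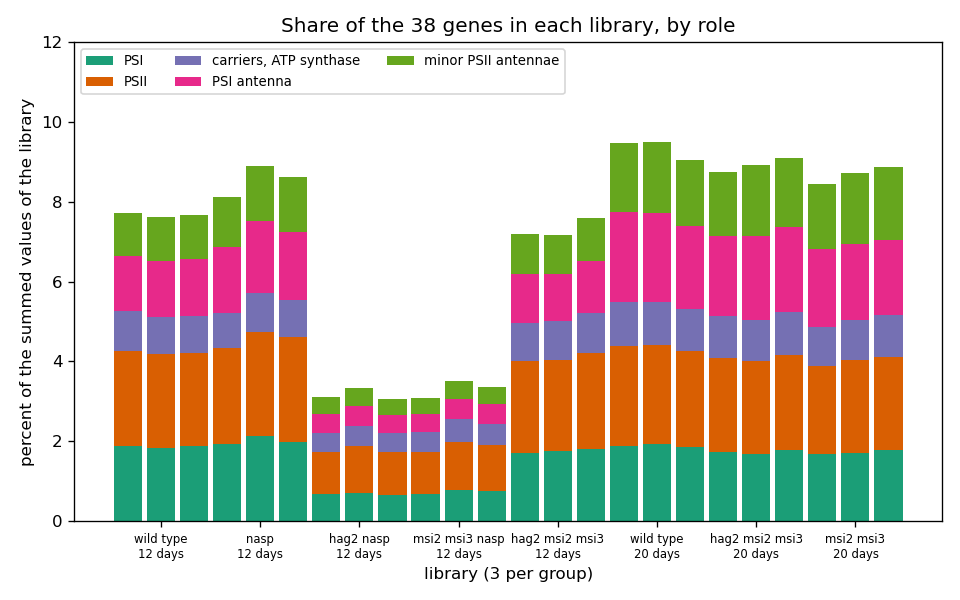
Percent of the summed values of each library (y axis) taken by the 38 genes, stacked by role, with 3 libraries per genotype and age along the x axis. The hag2 nasp and msi2 msi3 nasp bars end between 3.05 and 3.51%, below every other library.

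Against the wild type at 12 days, all 38 genes fell in hag2 nasp and all 38 fell in msi2 msi3 nasp (limma with Benjamini-Hochberg adjustment over all genes tested). Of all genes tested, 66.3% changed in hag2 nasp, 33.2% downward, and 66.8% in msi2 msi3 nasp, 33.3% downward. The median log2 fold change of the 38 genes was -1.33 and -1.26, while that of all genes tested was near 0 in both. Member means lay between 23.4 and 77.5% of the wild type in hag2 nasp and between 24.8 and 84.0% in msi2 msi3 nasp. Among the 1402 genes tested at 12 days whose mean was at or above that of the lowest member, a set formed after the values were seen, 40.7% fell in hag2 nasp and 39.2% in the msi2 msi3 nasp line. Only 6 of the 38 genes changed in nasp, all upward, where 3.89% of all genes changed and 2.5% rose. Of all genes called in nasp 64.3% were higher, but 47.8% with libraries scaled by their total, under which 6 members still rose. In hag2 msi2 msi3 a single gene, LHCB4.2, changed and fell, where 4.04% of all genes changed and 1.96% fell. In RNA from seedlings, fewer green cells and less transcript per green cell cannot be told apart.

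**Figure D2:**
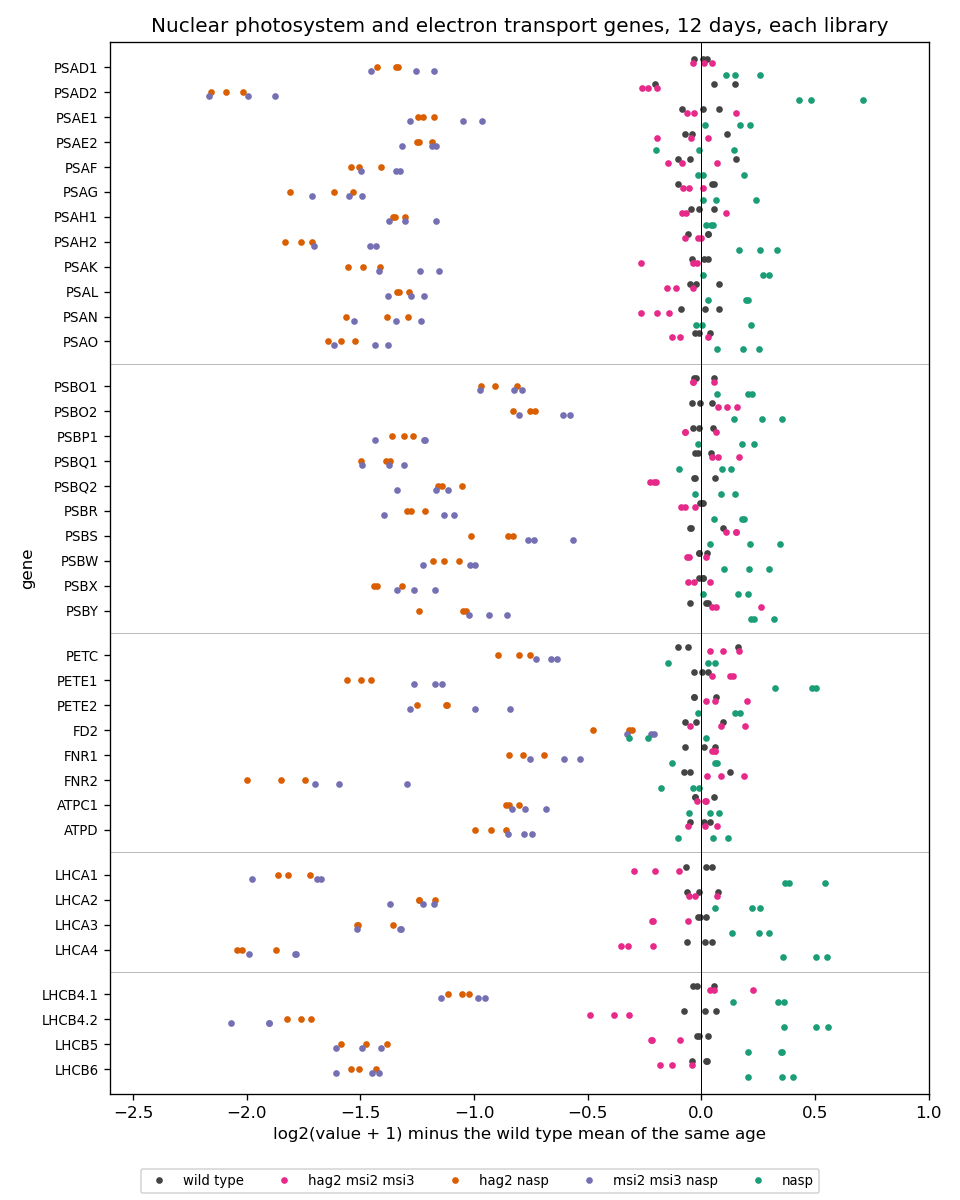
Values of the 38 genes (y axis, grouped by role) in each 12-day library, as log2(value + 1) minus the mean of the 3 wild type libraries (x axis); each point is 1 library. Every hag2 nasp and msi2 msi3 nasp point lies left of 0, LHCB4.2 is the clearest gene left of 0 in hag2 msi2 msi3, and PSAD2, PETE1, LHCA4 and LHCB4.2 stand farthest right in nasp.

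Photosystem I subunits fell as a body in both nasp combinations, 12 of 12 in each, with a median log2 fold change of -1.45 in hag2 nasp and -1.33 in the msi2 msi3 nasp line. The paralogues PSAD1 (AT4G02770) and PSAD2 (AT1G03130) encode the stromal subunit at which ferredoxin docks. PSAD2 stood at 20834, 24896 and 26543 in the wild type, 5338, 6019 and 6534 in msi2 msi3 nasp, 5627, 5917 and 5366 in hag2 nasp, 33507, 39237 and 32276 in nasp and 19970, 20382 and 20955 in hag2 msi2 msi3. All nasp libraries were above, and all libraries of both combinations below, those of the wild type, while hag2 msi2 msi3 overlapped the wild type. PSAD2 had the largest change of the group in each of these 3 genotypes, 0.54 ± 0.095, adjusted p = 0.00234 in nasp, -2.09 ± 0.095, adjusted p = 2.41e-12 in hag2 nasp and -2.01 ± 0.095, adjusted p = 3.74e-12 in msi2 msi3 nasp. PSAD1 stood at 57914, 55746 and 57162 in the wild type, 20798, 23857 and 25206 in msi2 msi3 nasp, 22449, 22581 and 21180 in hag2 nasp, 61375, 68052 and 63072 in nasp and 55498, 57461 and 58894 in hag2 msi2 msi3. The nasp libraries of PSAD1 were also all above the wild type, but its change in nasp did not pass the test (0.17 ± 0.089, adjusted p = 0.372). PSAE1 (AT4G28750), which encodes another stromal subunit of the ferredoxin docking site, had the smallest fall of the group. Its values were 17364, 15513 and 16571 in the wild type, 6780, 7971 and 8440 in msi2 msi3 nasp, 6929, 7049 and 7284 in hag2 nasp, 16632, 19077 and 18539 in nasp and 15748, 16092 and 18314 in hag2 msi2 msi3. That is a log2 fold change of -1.22 ± 0.084 in hag2 nasp (adjusted p = 5.59e-10) and -1.10 ± 0.084 in the msi2 msi3 nasp line (adjusted p = 2.24e-09). PSAH1 (AT3G16140) and PSAH2 (AT1G52230) encode the subunit next to which mobile antenna docks. PSAH2 stood at 18275, 19444 and 19418 in the wild type, 5847, 6923 and 7060 in msi2 msi3 nasp, 5347, 5805 and 5613 in hag2 nasp, 21339, 23966 and 22749 in nasp and 18846, 18137 and 19035 in hag2 msi2 msi3. PSAH1 stood at 12840, 11985 and 12292 in the wild type, 4768, 5504 and 5013 in msi2 msi3 nasp, 4823, 5012 and 4858 in hag2 nasp, 12529, 12827 and 12730 in nasp and 11792, 11676 and 13328 in hag2 msi2 msi3. Both genes were below the wild type in every library of both combinations, with log2 fold changes (hag2 nasp first) of -1.77 ± 0.074 and -1.53 ± 0.074 for PSAH2 and of -1.34 ± 0.065 and -1.28 ± 0.065 for PSAH1. The other 7 genes are PSAE2 (AT2G20260), PSAF (AT1G31330) (on the lumenal side, where plastocyanin docks), PSAG (AT1G55670) and PSAK (AT1G30380) (at the edge facing the antenna), PSAL (AT4G12800) and PSAO (AT1G08380) (on the side where mobile antenna docks) and PSAN (AT5G64040) (lumenal). Their log2 fold changes ran from -1.65 for PSAG to -1.23 for PSAE2 in hag2 nasp and from -1.59 for PSAG to -1.22 for PSAE2 in msi2 msi3 nasp. Parts of some of the transcripts also lie in another gene's transcript on either strand, 58.8% of the 50-base windows of PSAG, 49.2% of PSAH1, 29.1% of PSAE1 and 19.1% of PSAH2, and among the other roles 10.9% of LHCB6 (AT1G15820), 9.73% of FNR1 (AT5G66190) and 8.76% of LHCA2 (AT3G61470). How the authors assigned such reads is not stated, so these values are less certain.

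The 4 photosystem I antenna genes encode chlorophyll-binding proteins that surround the core and funnel light energy to it. All 4 fell in both combinations, with a median log2 fold change of -1.63 in hag2 nasp and -1.58 in the msi2 msi3 nasp line. In nasp 2 of the 4 rose. LHCA4 (AT3G47470) stood at 70679, 74819 and 76489 in the wild type, 18596, 21459 and 21420 in msi2 msi3 nasp, 17942, 20218 and 18252 in hag2 nasp, 94830, 108614 and 104863 in nasp and 59212, 57825 and 63764 in hag2 msi2 msi3. The nasp libraries were all above, and those of the other 3 mutants all below, the wild type. The change was 0.47 ± 0.095, adjusted p = 0.00697 in nasp, -1.98 ± 0.095, adjusted p = 4.61e-12 in hag2 nasp and -1.85 ± 0.095, adjusted p = 1.00e-11 in msi2 msi3 nasp. In hag2 msi2 msi3 it did not pass the test (-0.30 ± 0.095, adjusted p = 0.0962), although it did with voom weights (adjusted p = 0.0112) and with only the groups compared in the fit (adjusted p = 0.0486). LHCA1 (AT3G54890) was the other gene that rose in nasp, where it stood at 96556, 109040 and 97554 against 71275, 75867 and 77280 in the wild type (0.43 ± 0.10, adjusted p = 0.0201). This call ended when wild type replicate 1 or 2 or nasp replicate 2 was left out (adjusted p = 0.0783, 0.0613 and 0.117). LHCA2 had the smallest fall of the group, at 62625, 56943 and 58968 in the wild type, 23014, 26335 and 25424 in msi2 msi3 nasp, 25171, 26397 and 25138 in hag2 nasp, 62033, 71092 and 69346 in nasp and 58391, 57277 and 62403 in hag2 msi2 msi3. Its log2 fold change was -1.22 ± 0.090 in hag2 nasp (adjusted p = 1.35e-09) and -1.26 ± 0.090 in the msi2 msi3 nasp line (adjusted p = 8.92e-10). LHCA3 (AT1G61520) changed by -1.46 ± 0.096 and -1.39 ± 0.096.

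The 250 bases before the annotated start of each gene were read from RefSeq's TAIR10.1 assembly and searched on both strands for 5 elements: the G-box CACGTG, the I-box GATAAG, the element CCAATC bound by GLK factors, the evening element AAAATATCT and the CCA1 binding site AAAAATCT. No one of these strings contains another. Of the 38 genes, 8 (21.1%) held a G-box, against 6.49% of 27443 nuclear promoters of the same length. An I-box was found in 11 (28.9%, against 12.3%), the GLK element in 9 (23.7%, against 10.2%), the evening element in 1 (2.63%, against 2.36%) and the CCA1 site in 3 (7.89%, against 6.69%). In hag2 nasp, the median log2 fold change with and without an element was -1.32 (8 genes) and -1.33 (30 genes) for the G-box, -1.49 (11 genes) and -1.31 (27 genes) for the I-box, and -1.16 (9 genes) and -1.34 (29 genes) for the GLK element. In the msi2 msi3 nasp line these medians were -1.31 and -1.26, -1.29 and -1.26, and -1.21 and -1.27. They are given as a description, with no test. A match is a stretch of letters and says nothing on whether a factor binds there. The upstream sequence of LHCA4 is shown because it holds 3 of these elements and because LHCA4 had the largest changes of the photosystem I antenna genes. The gene lies at chr3:17493343-17495033, and the sequence covers chr3:17495034-17495283 on the minus strand, with the G-box, the GLK elements and the CCA1 site in capitals, read 5′ to 3′ on the gene's strand.
LHCA4: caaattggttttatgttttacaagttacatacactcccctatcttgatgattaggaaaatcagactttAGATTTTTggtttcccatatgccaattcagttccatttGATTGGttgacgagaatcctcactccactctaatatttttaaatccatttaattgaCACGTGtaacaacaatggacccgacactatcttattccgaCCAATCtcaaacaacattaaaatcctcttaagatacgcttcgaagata

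All 10 photosystem II subunit genes fell in hag2 nasp (median -1.12) and in the msi2 msi3 nasp line (median -1.14), and none passed the test in nasp or in hag2 msi2 msi3 (limma; without adjustment, 4 and 1 of the 10 had p below 0.05; with voom weights, PSBO2 passed in nasp and PSBQ2 in hag2 msi2 msi3). PSBO, PSBP and PSBQ encode the extrinsic proteins that shield the oxygen-evolving cluster on the lumenal side. PSBQ1 (AT4G21280) stood at 23690, 22707 and 22540 in the wild type, 8170, 8869 and 9268 in msi2 msi3 nasp, 8135, 8903 and 8770 in hag2 nasp, 21459, 24480 and 25176 in nasp and 24171, 23744 and 25743 in hag2 msi2 msi3. Its fall was the largest of the group, -1.42 ± 0.075, adjusted p = 1.40e-11 in hag2 nasp and -1.39 ± 0.075, adjusted p = 1.75e-11 in msi2 msi3 nasp, with every library below the wild type. PSBQ2 (AT4G05180) stood at 40245, 42910 and 40379 in the wild type, 16280, 18318 and 19015 in msi2 msi3 nasp, 18675, 19840 and 18422 in hag2 nasp, 40422, 45638 and 43663 in nasp and 35155, 35883 and 35608 in hag2 msi2 msi3. In hag2 msi2 msi3, each PSBQ2 library lay below the wild type (-0.21 ± 0.081, adjusted p = 0.167) and each PSBQ1 library above it (0.10 ± 0.075, adjusted p = 0.569), but neither difference passed the test. PSBO2 (AT3G50820) had the smallest fall, with values of 21912, 21102 and 20599 in the wild type, 12160, 13904 and 14216 in msi2 msi3 nasp, 11946, 12572 and 12756 in hag2 nasp, 23434, 25531 and 27067 in nasp and 22267, 22948 and 23600 in hag2 msi2 msi3. Its change was -0.77 ± 0.075, adjusted p = 5.23e-08 in hag2 nasp and -0.66 ± 0.075, adjusted p = 3.82e-07 in msi2 msi3 nasp. The major gene PSBO1 (AT5G66570) stood at 105097, 98998 and 99501 in the wild type, 51559, 58489 and 57210 in msi2 msi3 nasp, 51647, 57744 and 53884 in hag2 nasp, 106065, 117937 and 116754 in nasp and 98623, 98710 and 105249 in hag2 msi2 msi3. It changed by -0.90 ± 0.11 and -0.86 ± 0.11, a fall in every library of both combinations. The other 6 genes are PSBP1 (AT1G06680), the small subunits PSBR (AT1G79040), PSBW (AT2G30570), PSBX (AT2G06520) and PSBY (AT1G67740), and PSBS (AT1G44575), whose protein triggers the dissipation of excess light as heat. Their log2 fold changes ran from -1.39 (PSBX) to -0.90 (PSBS) in hag2 nasp and from -1.29 (PSBP1) to -0.69 (PSBS) in msi2 msi3 nasp.

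The minor antennae connect the photosystem II core to the major light-harvesting complex, and their 4 genes fell in both combinations (median -1.49 in hag2 nasp and -1.50 in the msi2 msi3 nasp line). The paralogues LHCB4.1 (AT5G01530) and LHCB4.2 (AT3G08940) encode the same antenna protein type. LHCB4.2 stood at 25427, 28040 and 27131 in the wild type, 6392, 7177 and 7178 in msi2 msi3 nasp, 7930, 8154 and 7590 in hag2 nasp, 34549, 39484 and 38126 in nasp and 20587, 19131 and 21537 in hag2 msi2 msi3. It was above the wild type in every nasp library and below it in every library of the other 3 genotypes. It rose in nasp (0.48 ± 0.075, adjusted p = 0.000895) and fell in hag2 nasp (-1.77 ± 0.075, adjusted p = 1.06e-12), in msi2 msi3 nasp (-1.96 ± 0.075, adjusted p = 2.64e-13) and in hag2 msi2 msi3 (-0.40 ± 0.075, adjusted p = 0.00589). LHCB4.1 stood at 72536, 67936 and 68734 in the wild type, 31493, 35306 and 36012 in msi2 msi3 nasp, 32148, 34347 and 33611 in hag2 nasp, 76746, 87946 and 89576 in nasp and 72522, 71646 and 81560 in hag2 msi2 msi3. Its fall in hag2 nasp (-1.06 ± 0.10, adjusted p = 3.21e-08) and in the msi2 msi3 nasp line (-1.03 ± 0.10, adjusted p = 5.13e-08) was the smallest of the group, and in hag2 msi2 msi3 its libraries overlapped the wild type (0.11 ± 0.10, adjusted p = 0.647). LHCB5 (AT4G10340) changed by -1.48 ± 0.099 and -1.50 ± 0.099, and LHCB6 by -1.49 ± 0.079 and -1.49 ± 0.079, hag2 nasp first. In nasp LHCB6 rose, from 34723, 36255 and 36335 in the wild type to 41271, 47248 and 45668 (0.32 ± 0.079, adjusted p = 0.0258). That call ended in 5 of the 6 fits that left out 1 wild type or nasp library (adjusted p = 0.0666 to 0.141).

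The electron carriers and ATP synthase subunits fell least, with a median log2 fold change of -0.88 in hag2 nasp and -0.78 in the msi2 msi3 nasp line, although all 8 genes passed the test in each. The range of fold changes within the group was also the widest. FNR2 (AT1G20020), one of the leaf ferredoxin-NADP reductase genes, stood at 31131, 27565 and 27090 in the wild type, 8798, 11619 and 9448 in msi2 msi3 nasp, 7917, 8532 and 7150 in hag2 nasp, 25236, 28356 and 27790 in nasp and 30297, 29068 and 32483 in hag2 msi2 msi3. It fell in hag2 nasp (-1.86 ± 0.099, adjusted p = 1.57e-11) and in the msi2 msi3 nasp line (-1.53 ± 0.099, adjusted p = 2.10e-10), with no overlap with the wild type. Its paralogue FNR1 stood at 18327, 17739 and 16726 in the wild type, 10422, 12128 and 11565 in msi2 msi3 nasp, 9786, 10896 and 10197 in hag2 nasp, 16078, 18306 and 18447 in nasp and 18140, 18338 and 18320 in hag2 msi2 msi3. FNR1 changed by -0.77 ± 0.075 and -0.63 ± 0.075, again with every library below the wild type. FD2 (AT1G60950), the main leaf ferredoxin gene, had the smallest change of all 38 genes. Its values were 28670, 26440 and 25513 in the wild type, 21399, 23252 and 23045 in msi2 msi3 nasp, 19274, 21495 and 21714 in hag2 nasp, 22838, 27188 and 21524 in nasp and 25889, 28467 and 30676 in hag2 msi2 msi3. The fall was -0.37 ± 0.095, adjusted p = 0.00223 in hag2 nasp and -0.25 ± 0.095, adjusted p = 0.0258 in the msi2 msi3 nasp line; the second of these calls was lost if wild type replicate 1 or msi2 msi3 nasp replicate 1 was left out (adjusted p = 0.1003 and 0.0871). Of the plastocyanin genes, PETE1 (AT1G76100) stood at 3067, 3116 and 2990 in the wild type, 1271, 1384 and 1358 in msi2 msi3 nasp, 1116, 1082 and 1036 in hag2 nasp, 3832, 4286 and 4332 in nasp and 3341, 3160 and 3370 in hag2 msi2 msi3. PETE1 was higher in every nasp library than in any wild type library (0.44 ± 0.056, adjusted p = 0.000111) and lower in every library of hag2 nasp (-1.50 ± 0.056, adjusted p = 2.20e-13) and msi2 msi3 nasp (-1.19 ± 0.056, adjusted p = 3.49e-12). PETE2 (AT1G20340) stood at 60782, 56926 and 56899 in the wild type, 23938, 29204 and 32498 in msi2 msi3 nasp, 24479, 26707 and 26762 in hag2 nasp, 57531, 65499 and 64529 in nasp and 60693, 58942 and 66860 in hag2 msi2 msi3. It changed by -1.16 ± 0.11 and -1.04 ± 0.11, and its nasp libraries overlapped the wild type. PETC (AT4G03280), the Rieske iron-sulfur protein of the cytochrome b6f complex, changed by -0.82 ± 0.076 and -0.67 ± 0.076. The ATP synthase gamma subunit gene ATPC1 (AT4G04640) changed by -0.84 ± 0.070 and -0.76 ± 0.070, and the delta subunit gene ATPD (AT4G09650) by -0.93 ± 0.068 and -0.79 ± 0.068.

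**Figure D3:**
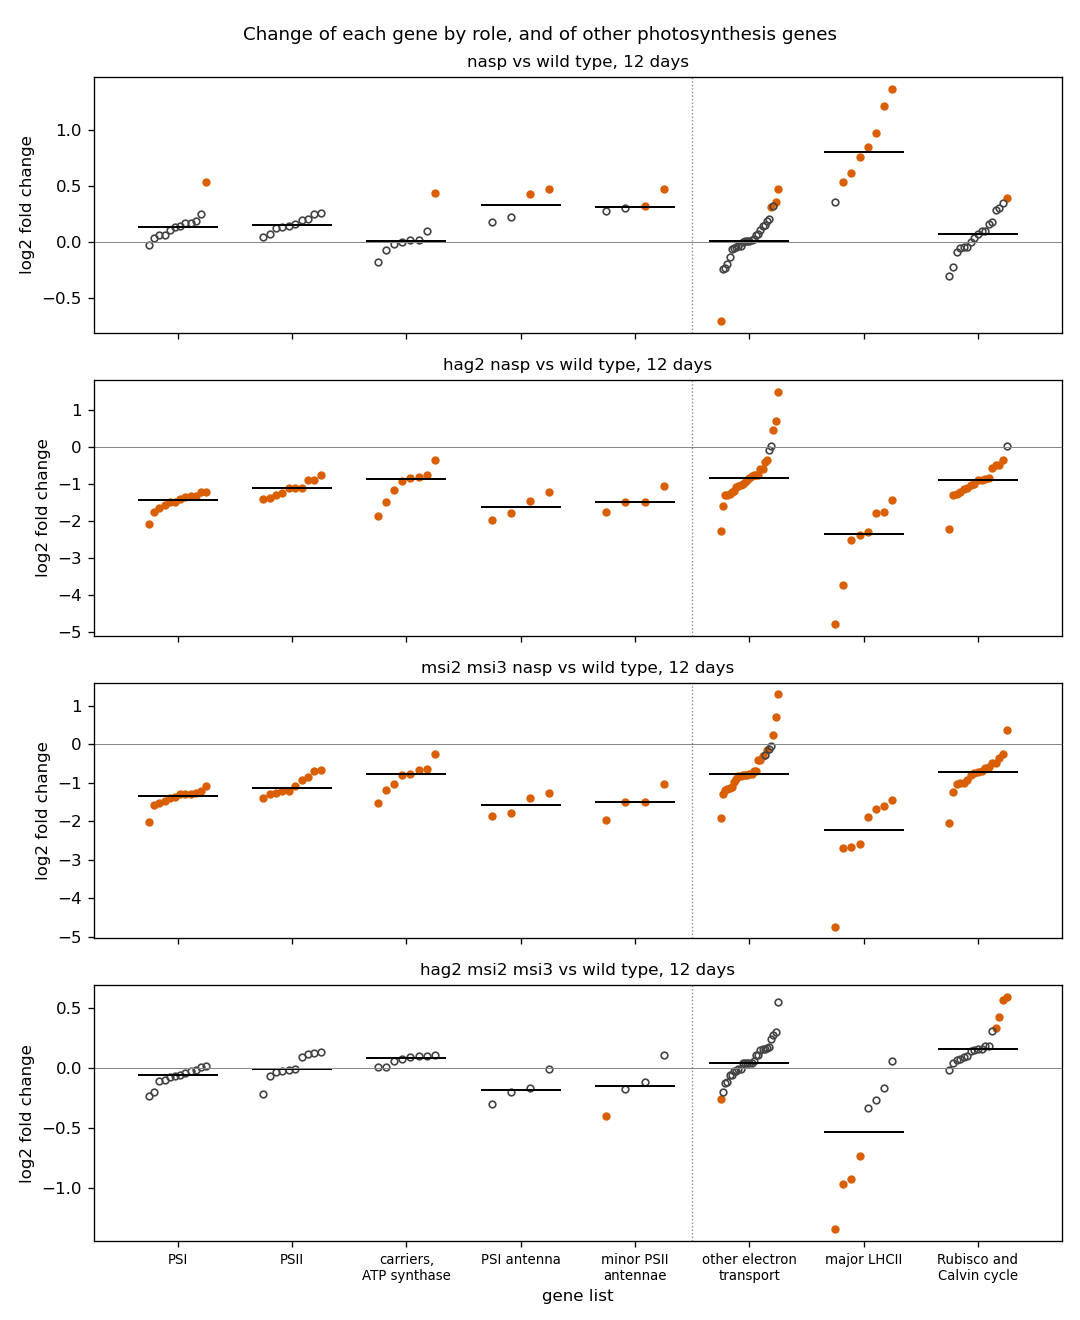
Log2 fold change of each gene against the 12-day wild type (y axis) in the 4 mutants of that age, with the genes grouped by role (left of the dotted line) and beside other photosynthesis gene lists (right); filled points passed the test, open points did not, and bars are list medians. In the combinations, the median of the carriers (-0.88 and -0.78) lies nearest 0 among the role groups and the major LHCII median (-2.34 and -2.23) lies lowest of all the lists shown.

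Of these genes, 16 form 8 pairs of paralogues whose members share a function, and the ratio of values within a pair was compared among the genotypes of each age. It was taken as log2((value + 1)/(value + 1)), and the exact permutation test asked whether the ratio differed among genotypes, with p adjusted over 16 tests (8 pairs at each age). Such a ratio does not depend on a single scaling factor per library. Whether the deposited values were also adjusted gene by gene or by genotype is not stated, and its effect on the ratios was not tested. No 50-base window is shared between the members of any pair. At 12 days 7 of the 8 ratios differed among genotypes, all but PSAE1 over PSAE2 (exact permutation test, adjusted p = 0.292). No other gene pairs were tested, so the share of arbitrary pairs whose ratio would differ is unknown. Against the 12-day wild type, 66.3% (hag2 nasp) and 66.8% (msi2 msi3 nasp) of all genes tested changed. The test is over all genotypes of an age at once; a pair of genotypes with 3 libraries each cannot reach an exact permutation p below 0.1.

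LHCB4.1 over LHCB4.2 had the lowest p, 7.14e-07, the smallest that 1401400 regroupings can give (exact permutation, adjusted p = 1.14e-05). Its mean log2 ratio was 1.38 ± 0.12 (SD) in the wild type, 2.31 ± 0.016 in msi2 msi3 nasp, 2.08 ± 0.064 in hag2 nasp, 1.18 ± 0.046 in nasp and 1.88 ± 0.056 in hag2 msi2 msi3. The nasp libraries were all below the wild type and those of the other 3 genotypes all above it, hag2 msi2 msi3 included. FNR1 over FNR2 was -0.70 ± 0.064 (SD) in the wild type, 0.20 ± 0.12 in msi2 msi3 nasp, 0.39 ± 0.11 in hag2 nasp, -0.62 ± 0.030 in nasp and -0.74 ± 0.081 in hag2 msi2 msi3 (exact permutation, adjusted p = 0.000112). FNR1 had the higher value in every library of both combinations, and FNR2 in every library of the other 3 genotypes. PSAD1 over PSAD2 was 1.25 ± 0.20 (SD) in the wild type, 1.97 ± 0.020 in msi2 msi3 nasp, 1.97 ± 0.033 in hag2 nasp, 0.88 ± 0.086 in nasp and 1.49 ± 0.011 in hag2 msi2 msi3 (exact permutation, adjusted p = 5.42e-05). PSAH1 over PSAH2 was -0.62 ± 0.0998 (SD) in the wild type, -0.37 ± 0.11 in msi2 msi3 nasp, -0.19 ± 0.035 in hag2 nasp, -0.84 ± 0.067 in nasp and -0.61 ± 0.084 in hag2 msi2 msi3 (exact permutation, adjusted p = 5.42e-05). In both these pairs the ratio was lowest in nasp and highest in the 2 combinations. PSBQ1 over PSBQ2 was -0.84 ± 0.077 (SD) in the wild type, -1.03 ± 0.028 in msi2 msi3 nasp, -1.14 ± 0.065 in hag2 nasp, -0.87 ± 0.065 in nasp and -0.53 ± 0.064 in hag2 msi2 msi3 (exact permutation, adjusted p = 5.42e-05). Here hag2 msi2 msi3 lay above the wild type and both combinations below it, with no overlap. PETE1 over PETE2 was -4.25 ± 0.059 (SD) in the wild type, -4.40 ± 0.17 in msi2 msi3 nasp, -4.59 ± 0.12 in hag2 nasp, -3.91 ± 0.019 in nasp and -4.24 ± 0.065 in hag2 msi2 msi3 (exact permutation, adjusted p = 0.000769). PSBO1 over PSBO2, the smallest shift called, was 2.25 ± 0.022 (SD) in the wild type, 2.06 ± 0.041 in msi2 msi3 nasp, 2.13 ± 0.062 in hag2 nasp, 2.16 ± 0.051 in nasp and 2.14 ± 0.028 in hag2 msi2 msi3 (exact permutation, adjusted p = 0.00714), with every mutant library below the wild type.

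**Figure D4:**
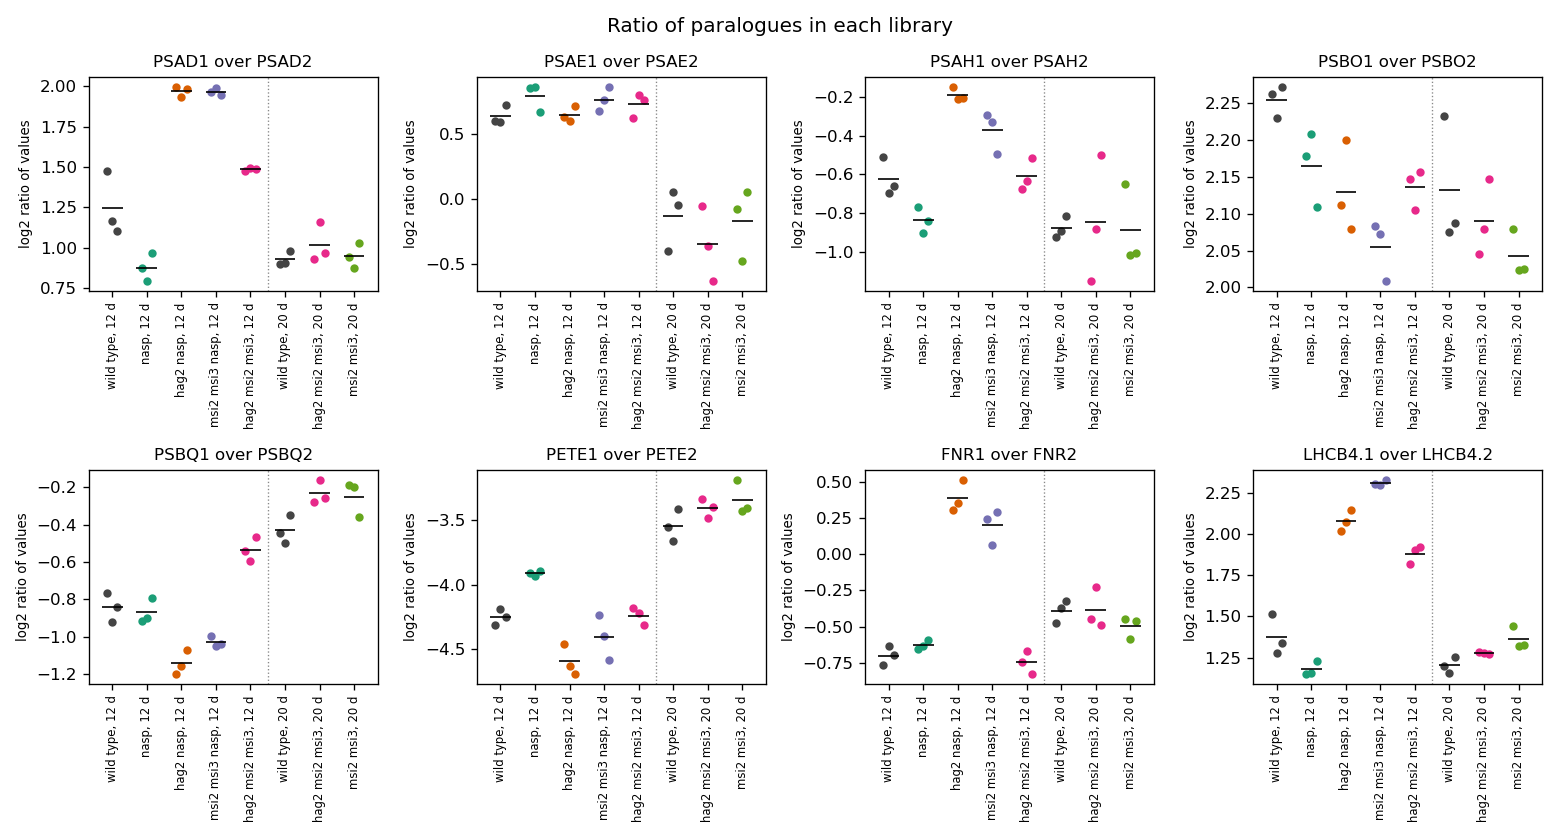
Log2 ratio of the values of each paralogue pair (y axis) in each library, by genotype along the x axis, with 12-day genotypes left and 20-day genotypes right of the dotted line; bars are means of 3 libraries. FNR1 over FNR2 lies above 0 in the 12-day combinations and below 0 elsewhere, and LHCB4.1 over LHCB4.2 spans 1.15 to 2.33 at 12 days.

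The upstream sequences of LHCB4.1 and LHCB4.2 are shown, 5′ to 3′, because theirs was the one pair whose ratio differed among genotypes at both ages. Both lie on the plus strand of TAIR10.1, LHCB4.1 at chr5:208616-208865 and LHCB4.2 at chr3:2717307-2717556, directly before genes at chr5:208866-210548 and chr3:2717557-2718923, and capitals mark the elements found. LHCB4.1 holds a G-box and the GLK element, whereas LHCB4.2 holds an I-box and the GLK element and no G-box in this window.
LHCB4.1: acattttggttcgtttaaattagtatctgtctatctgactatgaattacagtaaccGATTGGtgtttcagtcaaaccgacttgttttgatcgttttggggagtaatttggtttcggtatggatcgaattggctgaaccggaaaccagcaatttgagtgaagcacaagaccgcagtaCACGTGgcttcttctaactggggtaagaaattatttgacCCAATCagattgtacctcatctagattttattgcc
LHCB4.2: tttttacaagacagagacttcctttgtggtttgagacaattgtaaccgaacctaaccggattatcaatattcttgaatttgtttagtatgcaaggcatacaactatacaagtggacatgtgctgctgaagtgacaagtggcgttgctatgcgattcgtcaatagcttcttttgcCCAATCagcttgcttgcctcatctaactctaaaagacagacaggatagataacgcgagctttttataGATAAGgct

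Both combinations carry the nasp allele, so each was also set against nasp alone. Of the 38 genes, 37 fell in each. Of all genes, 66.8% changed from nasp to hag2 nasp and 66.9% from nasp to msi2 msi3 nasp, with 33.3% lower in either case. The median log2 fold change was -1.45 and -1.43. FD2 was the exception in both (-0.19 ± 0.095, adjusted p = 0.0848 and -0.07 ± 0.095, adjusted p = 0.510); without nasp replicate 3 it passed the test in hag2 nasp (adjusted p = 0.0342). These comparisons share their nasp libraries, and the values of each member are those given above. The largest difference was that of PSAD2 (-2.63 ± 0.095 and -2.55 ± 0.095), followed in hag2 nasp by LHCA4 (-2.45 ± 0.095) and in msi2 msi3 nasp by LHCB4.2 (-2.43 ± 0.075).

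Between the combinations, a single gene differed: PETE1 was lower in hag2 nasp than in msi2 msi3 nasp (-0.31 ± 0.056, adjusted p = 0.00255), where 6.33% of all genes differed and 3.26% were lower. The libraries of hag2 nasp (1116, 1082 and 1036) did not overlap those of msi2 msi3 nasp (1271, 1384 and 1358). Of the other 37 genes, 33 had a lower and 4 a higher value in hag2 nasp, with a range from -0.33 (FNR2, adjusted p = 0.0532) to 0.19 (LHCB4.2, adjusted p = 0.155), and none passed the test. The median of the 38 genes was -0.07. Of all 24305 genes tested, 12223 had a negative log2 fold change, as did 747 of the 1402 at or above the lowest member mean. Without msi2 msi3 nasp replicate 1, FNR2 and PSAH2 passed the test too (adjusted p = 0.0294 and 0.0130), which makes 3 genes.

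At 20 days, 2 of the 38 genes fell in msi2 msi3 and none rose, where 7.6% of all genes changed and 4.15% fell. The median log2 fold change of the 38 was -0.16 (-0.12 with libraries scaled by their total), and 34 of them had a lower mean than the wild type. Of the 23707 genes tested, 11406 had a negative log2 fold change. So did 270 of the 402 genes at or above the lowest member mean, a set formed after the values were seen. The median of those 402 was -0.07, and 8.96% of them fell. ATPD stood at 44298, 45184 and 41645 in the wild type, 33443, 36309 and 37207 in msi2 msi3 and 39260, 39828 and 41918 in hag2 msi2 msi3. Each msi2 msi3 library was below each wild type library (-0.29 ± 0.066, adjusted p = 0.0129). The call ended without wild type replicate 1 or 2 (adjusted p = 0.0588 and 0.0623). FNR1 stood at 41092, 40364 and 39580 in the wild type, 32958, 32709 and 36759 in msi2 msi3 and 40367, 38662 and 41770 in hag2 msi2 msi3. Its msi2 msi3 libraries were also all below the wild type (-0.24 ± 0.066, adjusted p = 0.0349), and that call ended without any of the wild type replicates or msi2 msi3 replicates 1 or 2 (adjusted p = 0.0751 to 0.139). Without wild type replicate 1 or 2 no member passed, and without wild type replicate 3 or msi2 msi3 replicate 2 only ATPD did. Without msi2 msi3 replicate 1 LHCA1 passed beside ATPD (adjusted p = 0.0330), and without msi2 msi3 replicate 3 PSBQ2 passed beside both (adjusted p = 0.0414). With voom weights 7 members fell, where 7.33% of all genes changed. Of all genes called 45.4% were higher, and 58.0% with libraries scaled by their total. The member with the largest fall besides ATPD was PSAN, a lumenal photosystem I subunit (-0.29 ± 0.11, adjusted p = 0.124), which did not pass the test.

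In the libraries labelled hag2 msi2 msi3 at 20 days, 0 of the 38 genes passed limma's test against the wild type (2 had an unadjusted p below 0.05, and 0 passed with voom weights), where 4.29% of all genes were called. The log2 fold changes ran from -0.29 for PSAK to 0.13 for FD2, with a median of -0.06. Against msi2 msi3, 0 of 38 passed (6 with an unadjusted p below 0.05, and 0 with voom weights), where 1.19% of all genes were called; the median was 0.08. Of all genes called, 86.1% were higher in hag2 msi2 msi3 than in msi2 msi3, and 68.6% with scaling by library total; against the wild type 60.2% were higher, and 49.5% with voom weights. Of the 8 paralogue ratios, 1 differed among the 20-day genotypes. LHCB4.1 over LHCB4.2 ran from 1.16 to 1.25 in the wild type, from 1.27 to 1.29 in hag2 msi2 msi3 and from 1.32 to 1.44 for msi2 msi3 (log2 ratios), with no overlap between the 3 genotypes. Its exact permutation p of 0.00357 is the smallest that 280 regroupings can give (adjusted p = 0.00714). Without msi2 msi3 replicate 1 no ratio passed, and without msi2 msi3 replicate 3 PSBQ1 over PSBQ2 passed as well. LHCB4.1 stood at 285758, 275927 and 279234 in the wild type, 269849, 269226 and 284948 in msi2 msi3 and 283349, 317898 and 298160 in hag2 msi2 msi3. LHCB4.2 stood at 124592, 123448 and 117033 in the wild type, 99189, 107870 and 113657 in msi2 msi3 and 116192, 131160 and 123603 in hag2 msi2 msi3. The msi2 msi3 libraries of LHCB4.2 were all below the wild type, but its change did not pass the test (-0.19 ± 0.080, adjusted p = 0.181).

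**Figure D5:**
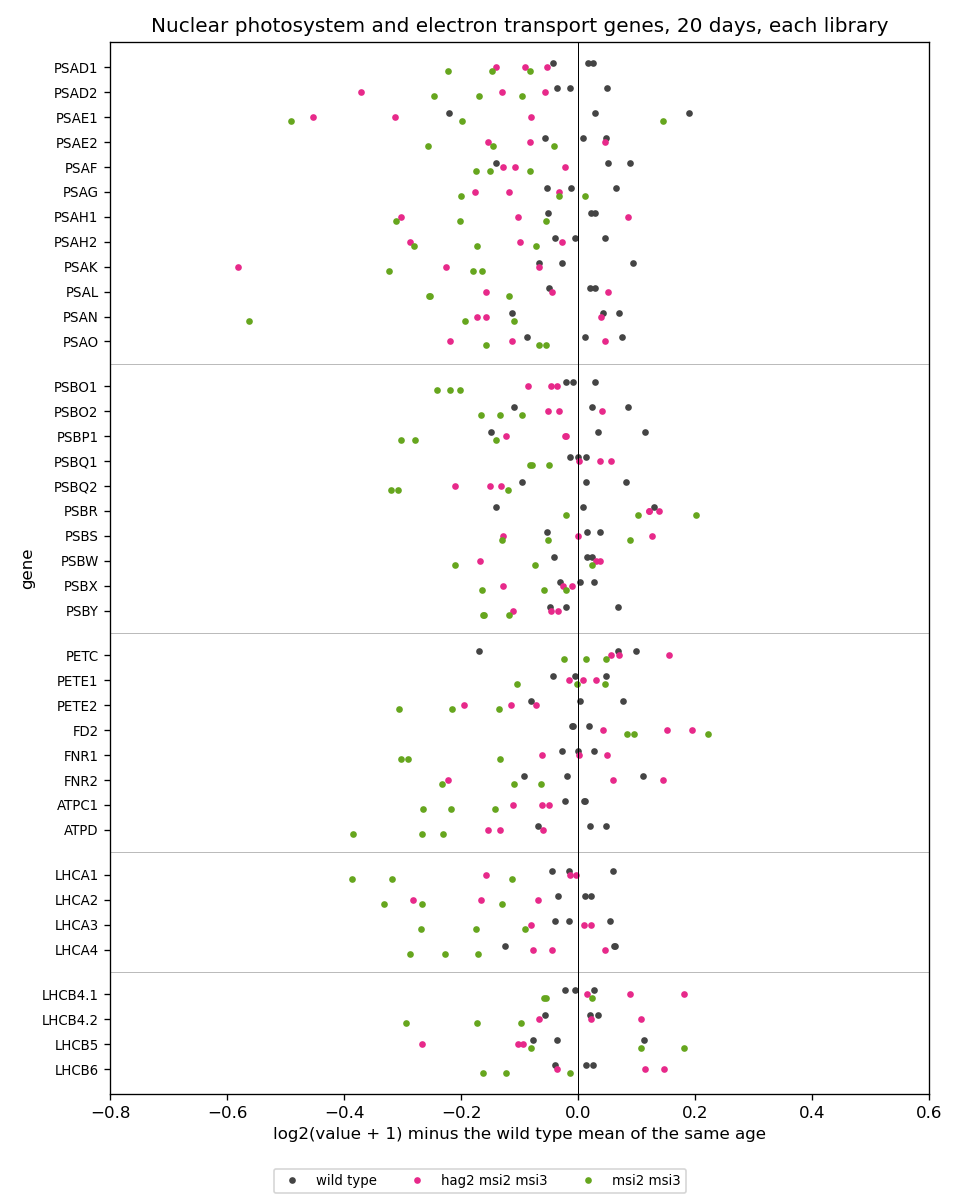
Values of the 38 genes (y axis, grouped by role) in each 20-day library, as log2(value + 1) minus the mean of the 3 wild type libraries (x axis, narrower than at 12 days); each point is 1 library. Most msi2 msi3 points lie left of 0, and ATPD and FNR1 are the genes that passed the test in that genotype.

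The hag2 msi2 msi3 genotype was sequenced at both ages, and its effect was compared between them by an interaction. No member passed the test of that difference (0 of 38 in limma, 1 with an unadjusted p below 0.05), where 0.858% of all genes tested did. LHCB4.2 came closest: it fell at 12 days (-0.40 ± 0.075) and stood at 0.02 ± 0.080 at 20 days, a difference of 0.42 ± 0.11, adjusted p = 0.0906. It passed with voom weights (adjusted p = 0.0284) and without hag2 msi2 msi3 replicate 1 of the 20-day set (adjusted p = 0.0498). Age, growth on plates or in a chamber, sequencing instrument and read length (50 bases at 12 days, 150 at 20 days) cannot be told apart here. Whether the same part of the plant was taken at both ages is not stated. On separate scales, 10 root marker genes summed to 3372 to 3569 in the 12-day wild type and 32.4 to 62.8 in the 20-day wild type.

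Other photosynthesis genes are given from lists chosen by function. Of all 24305 genes tested at 12 days, 33.2% fell and 8051 rose in hag2 nasp, and 33.3% fell and 8160 rose in msi2 msi3 nasp. In nasp 608 rose and 337 fell, and in hag2 msi2 msi3 505 rose and 477 fell. Of 29 other electron transport genes, 27 were tested; ATPC2 and NDHL are listed at 0 in every library. In hag2 nasp 22 fell and 3 rose, and in msi2 msi3 nasp 21 fell and 3 rose. LHCA6, which links photosystem I to the NDH complex, fell in both (-2.28 ± 0.12, adjusted p = 8.24e-12 and -1.92 ± 0.12, adjusted p = 7.88e-11). The genes that rose in hag2 nasp were RFNR1, a root-type ferredoxin-NADP reductase (1.49 ± 0.10, adjusted p = 3.90e-10), LHCB4.3, the third LHCB4 gene (0.69 ± 0.15, adjusted p = 0.000725), and FD3, a root-type ferredoxin (0.44 ± 0.080, adjusted p = 9.32e-05); they were named after their values were seen. In nasp, PGR5, a gene of cyclic electron flow, rose (0.47 ± 0.060, adjusted p = 0.000106), as did the antenna kinase gene STN7 (0.36 ± 0.056, adjusted p = 0.000752), while LHCB4.3 fell (-0.71 ± 0.15, adjusted p = 0.0122). Of 8 tested major LHCII genes, 7 rose in nasp and all 8 fell in both combinations, with medians of 0.81, -2.34 and -2.23; the near-identical copies of this family make single values uncertain. In hag2 msi2 msi3 at 12 days 4 of the 8 fell and none rose. Of 17 Rubisco small subunit and Calvin cycle genes, 16 fell in hag2 nasp (median -0.90), 16 fell and 1 rose in msi2 msi3 nasp (median -0.72), and 4 rose in hag2 msi2 msi3 at 12 days, RBCS2B among them (0.59 ± 0.085, adjusted p = 0.000521). At 20 days, 4 of the 27 other electron transport genes and 2 of the 8 major LHCII genes fell in msi2 msi3, where 4.15% of all genes fell.

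GLK1 and GLK2 encode transcription factors that drive photosynthesis genes. GLK2 stood at 1362, 1510 and 1492 in the wild type, 524, 516 and 621 in msi2 msi3 nasp, 670, 606 and 563 in hag2 nasp, 2548, 2608 and 2607 in nasp and 910, 847 and 963 in hag2 msi2 msi3. It rose in nasp (0.83 ± 0.077, adjusted p = 4.76e-06) and fell in hag2 nasp (-1.25 ± 0.077, adjusted p = 1.08e-10), in msi2 msi3 nasp (-1.40 ± 0.077, adjusted p = 2.47e-11) and in hag2 msi2 msi3 (-0.68 ± 0.077, adjusted p = 4.20e-05), with no overlap with the wild type in any. GLK1 fell in hag2 nasp (-0.51 ± 0.069, adjusted p = 3.67e-06), in msi2 msi3 nasp (-0.69 ± 0.069, adjusted p = 7.72e-08) and in hag2 msi2 msi3 (-0.27 ± 0.069, adjusted p = 0.0361). Both fell in each of the 20-day mutants, with log2 fold changes in msi2 msi3 of -0.50 ± 0.060 for GLK1 and -0.34 ± 0.066 for GLK2, and in the hag2 msi2 msi3 libraries of -0.45 ± 0.060 and -0.32 ± 0.066. HY5 and HYH, bZIP factor genes of light signalling, both rose, HY5 in hag2 nasp (0.56 ± 0.15, adjusted p = 0.00265) and in the msi2 msi3 nasp line (0.88 ± 0.15, adjusted p = 3.71e-05), and HYH in hag2 nasp (0.78 ± 0.14, adjusted p = 6.51e-05) and in the msi2 msi3 nasp line (1.38 ± 0.14, adjusted p = 6.08e-08).

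Markers of other tissue states moved with the fall of the 38 genes in the combinations. All 10 root markers fell in both; their summed value was 3372 to 3569 in the 12-day wild type, 3598 to 3802 in nasp, 3270 to 4100 in hag2 msi2 msi3, 1207 to 1391 in hag2 nasp and 942 to 967 in msi2 msi3 nasp. Of 8 senescence markers 7 were tested, and 6 of these rose in both; their summed value was 9534 to 10262 in the wild type, 7796 to 7992 in nasp, 10477 to 11802 in hag2 msi2 msi3, 16416 to 18918 in hag2 nasp and 17829 to 20947 in msi2 msi3 nasp. The untested gene was SAG12, a defining marker of developmental senescence, which was at most 1.99 in any 12-day library. The part of either in the fall of the 38 genes was not tested. At 20 days, 7 of the 10 root markers were tested and 1 fell in msi2 msi3, where 4.15% of all genes fell. The summed value of all 10 was 32.4 to 62.8 in the wild type, 34.4 to 52.4 in msi2 msi3 and 75.0 to 85.5 in hag2 msi2 msi3, although the labels call these samples seedlings and name no part of the plant.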

How the data were processed

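Per the submitters' processing notes, the study used bcl2fastq, HISAT2 and edgeR with the TAIR10 build; their versions and settings are not stated. Each age has 1 deposited table, which holds normalized, non-integer signal per gene, deposited by the authors with no account of the normalization. Whole reads could not be recovered, so depth and counting error are unknown and no test was run on counts. The voom weights, made for counts, were fitted to these non-integer values as an alternative only. In the 20-day table, 72771 values at a rounding floor were set to 0. In nasp, 7997 genes were at 0 in all 3 libraries and 0 genes in only 1 or 2, whereas other groups had 1241 to 2684 genes at 0 in 1 or 2 libraries.

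Here, limma 3.58.1 (R 4.3.3) was fitted to log2(value + 1), with a mean-variance trend, all genotypes of an age together, keeping genes that reached 1 in 3 or more libraries (24305 genes at 12 days, 23707 at 20 days and 24357 in the joint fit of both ages). Fold changes are on this log2(value + 1) scale, errors after ± are standard errors unless marked SD, and p-values were adjusted by Benjamini-Hochberg over all genes tested, with 0.05 as threshold. Pair ratios were tested by exact permutation in Python 3.11.15. Figures were drawn with matplotlib 3.10.9. Values in every library are given for the genes of each pair with a changed ratio and for the genes with the largest rise, the largest fall and, in the nasp combinations, the smallest change of each role; genes of other lists were named by lowest adjusted p unless stated. The members and lists were chosen with earlier results of these data known. Protein sequences were not used here.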

Additional observations from a re-analysis of the deposited data

How the results depend on the processing

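The fall of the members in both nasp combinations kept its direction under every alternative run. These were pseudocounts of 5 and 0.1, no filter, 2 other scalings, voom weights, a fit on the compared groups alone and a replicate block. Each library was also left out in turn. In the comparison of ages, the member median was -0.035 in the main fit and ran from -0.067 to 0.0029 under the alternatives. With scaling by library total, the more frequent direction among all genes called changed in nasp (from 64.3% to 47.8% higher). It also changed in msi2 msi3 at 20 days (from 45.4% to 58.0% higher). Other scalings moved the median of all genes from its main value by at most 0.064 on the log2 scale. With voom weights, 3 members passed in hag2 msi2 msi3 at 12 days (LHCB4.2, LHCA4 and PSBQ2; 4.23% of all genes), 3 between the combinations (6.03%), 7 in msi2 msi3 at 20 days (7.33%), 1 in the comparison of ages (0.628%) and 9 in nasp (4.68%). With only the groups compared in the fit, 2 passed in hag2 msi2 msi3 at 12 days (LHCB4.2 and LHCA4; 5.68% of all genes). Scaling by library total gave 2 between the combinations (6.001%) and 1 in msi2 msi3 at 20 days (7.70%), where no filter also gave 1 (6.54%). The cause of these shifts was not tested.

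Leaving out 1 library at a time, the members called numbered 4 to 7 in nasp, 38 in each hag2 nasp fit, 37 to 38 for msi2 msi3 nasp and 1 in each fit in hag2 msi2 msi3 at 12 days. They numbered against nasp 37 to 38 for hag2 nasp and 37 for msi2 msi3 nasp, 1 to 3 between the combinations, 0 to 3 in msi2 msi3 at 20 days, and 0 to 1 in the comparison of ages. They stayed at 0 in both other comparisons at 20 days. Pairs with a changed ratio numbered 7 in every such fit at 12 days and 0 to 2 at 20 days. The median of the 38 genes between the mutants of the 20-day set was 0.08, and 0.03 with library total scaling and with voom weights.

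Replicate numbers are shared by the genotypes, but nothing in the labels says that they pair libraries, and deviations of same-numbered libraries from their group means had a mean correlation across genes of 0.0011 at 12 days (-0.056 to 0.096 over 30 pairs) and 0.0049 at 20 days (-0.033 to 0.052 over 9 pairs). With the replicate number as a block, 2 members were called between the combinations (6.59% of all genes) and 7 in nasp (4.07%). The depth behind the values is unknown, and 3 libraries per genotype limit the precision.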
